A study of Mus musculus with 11 samples.

Results

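HNF4A binding was compared between wild-type and Cdx2 knockout jejunal villi by setting the HNF4A peak list of each genotype against the other. All peaks of both lists were taken: 22376 in wild type and 9676 in Cdx2 knockout, together 32052 of the 57382 transcription factor peaks in the 5 factor lists of the series. Wild-type peaks with at least 1 bp in common with a knockout peak are termed kept, and the rest lost. In the same way, knockout peaks are termed shared or knockout-only. A lost peak is one that was not called in the knockout, where weaker binding may remain.

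The series mapped CDX2, HNF4A and dimethylated lysine 4 of histone H3 (H3K4me2) by chromatin immunoprecipitation and sequencing in epithelium of mouse jejunal villi. Both HNF4A groups came from mice of a 129xC57BL6 mixed background. They differed, per the labels, in the loss of Cdx2, and the same antibody (Santa Cruz, HNF4α c-19) and the same lot were used for both. Each genotype had 1 HNF4A library and 1 H3K4me2 library, and wild-type CDX2 had 2 libraries. Libraries were made from pooled immunoprecipitations of 10 to 20 ng of DNA. The labels used here give no age and do not say how, or in which cells, Cdx2 was deleted, nor how many mice were pooled. Peak lists hold no expression values, so the villus label could not be checked against marker genes.

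HNF4A is a nuclear receptor that binds DNA as a dimer and activates genes of lipid handling and of the brush border in enterocytes, the absorptive cells of the villus. CDX2 is a homeodomain transcription factor that specifies intestinal identity, and it can occupy the same enhancers. H3K4me2 lies on nucleosomes of active promoters and enhancers. Where a factor occupies an enhancer, the marked nucleosomes typically flank the bound DNA and the centre is depleted.

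The values are peak positions and the authors' own score for each peak, which was 50 or more in both lists. Scores and list lengths move with sequencing depth, and the depth is unknown here. With 1 library a genotype, the spread between libraries of a genotype is unknown, so no p-value was computed. Intervals are 95% intervals and cover counting error only. In bulk villus epithelium, fewer cells with bound HNF4A and less binding per cell cannot be told apart. For scale, the wild-type CDX2 libraries are the only 2 of one factor and genotype. Of all peaks, 21.4% of library 2 overlapped library 1 and 13.1% of library 1 overlapped library 2. In the top score deciles these shares were 71.2% and 47.8%. For HNF4A, across genotypes, 70.4% of all knockout peaks and 99.8% of the top knockout decile overlapped a wild-type peak.

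Of the wild-type HNF4A peaks, 6740 (30.1%) were kept and 15636 were lost. Kept peaks were the high-scoring ones. Their median wild-type score was 170 (quartiles 95.6 and 307), against 68.6 (56.7 and 98.7) at lost peaks, a ratio of 2.48. A kept peak scored above a lost peak in 81.8% of all kept and lost pairings. Over 10 equal bins of wild-type score, the kept share was 7.19% in the lowest (95% interval 6.16 to 8.34), 23.6% in the sixth (21.8 to 25.4) and 84.4% in the highest (82.9 to 85.9). The 2 lowest bins did not differ beyond their intervals, and from there each share was above the one before. At a score of 500 or more, 741 of 790 peaks were kept (93.8%), and at 1000 or more 137 of 138. Of the 15636 lost peaks, 3799 scored 100 or more. When the wild-type list was cut to its highest-scoring peaks so that both lists had equal length, the kept share was 53.7%.

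Lost peaks did not lie just beside a knockout peak. A knockout peak edge lay within 100 bp of 172 lost peaks (1.10%), within 200 bp of 333 (2.13%) and within 500 bp of 724 (4.63%). For knockout-only peaks the counts with a wild-type peak edge at these distances were 82 (2.86%), 134 (4.68%) and 254 (8.87%).

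Peak width followed the score, with a Spearman correlation of 0.674 across wild-type peaks and 0.601 across knockout peaks of the same library. Kept peaks had a median width of 397 bp (quartiles 310 and 517) and lost peaks one of 266 bp (216 and 356). By quartile of width the kept share was 8.42%, 19.6%, 36.2% and 56.3%. With the classes compared within score deciles and weighted as the lost peaks, kept peaks were wider by 22.6 bp (17.6 to 27.5), and they were wider in 9 of 10 deciles. With both lists cut to scores of 100 or more, wild-type peaks whose knockout peak scored under 100 counted as lost. This width difference then turned to -9.69 bp (-17.3 to -2.07), so its direction depended on the score minimum and the redrawn classes.

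**Figure D1:**
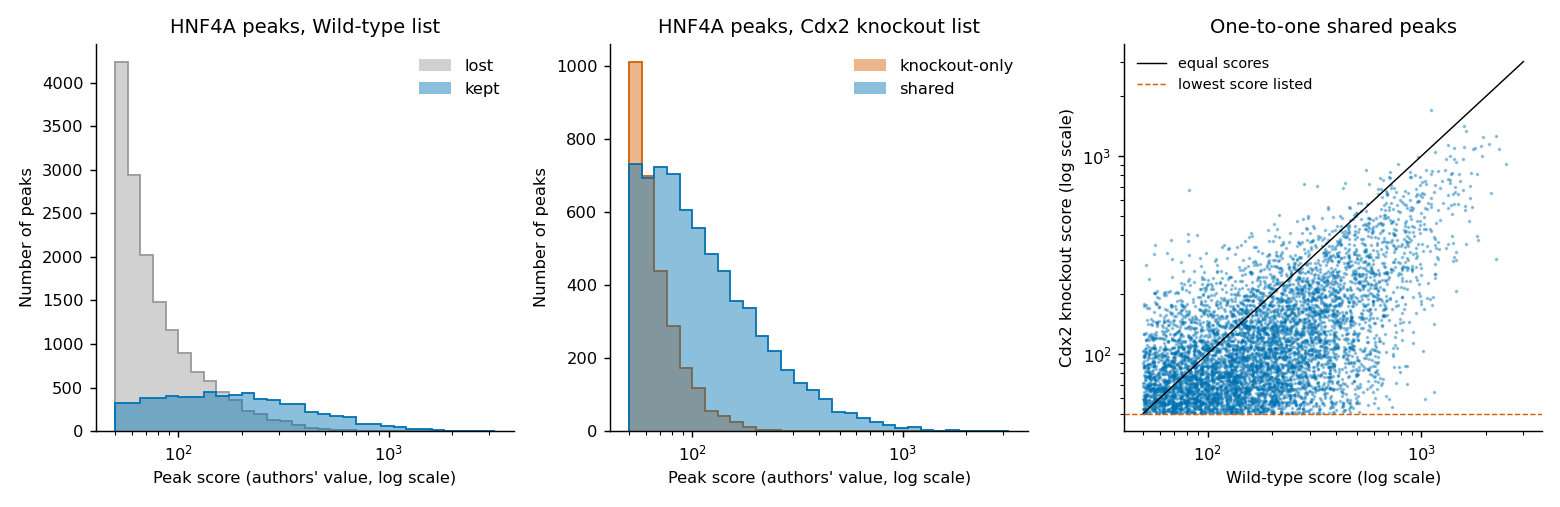
Peak scores on log axes: histograms of kept and lost wild-type peaks and of shared and knockout-only peaks, and the knockout score against the wild-type score of the 6475 one-to-one shared peaks. Lost and knockout-only peaks crowd near the floor of 50, and most shared peaks lie under the line of equal score.

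Peaks with H3K4me2 around them in wild type were kept more often. Nucleosomes were taken from the wild-type H3K4me2 list, a separate library, and counted where their centres lay within 1 kb of the peak centre. Kept peaks had 4.32 on average and lost peaks 2.71. No nucleosome was called around 370 kept peaks (5.49%, 4.96 to 6.06) but around 4700 lost peaks (30.1%, 29.3 to 30.8). Of the 5070 peaks with none, 7.30% were kept (6.6 to 8.05), and the share rose with each step of the count: 23.3% with 1, 32.2% with 2 to 3, 39.9% with 4 to 5, 44.4% with 6 to 7 and 47.2% (44.6 to 49.7) with 8 or more.

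Score and mark moved together, so the shares were also compared at equal score. Standardised to the score deciles of the marked peaks, the kept share exceeded that of unmarked peaks by 7.95 percentage points with 1 nucleosome (5.90 to 10.0) and by 23.8 points with 8 or more (20.8 to 26.8). In the lowest-scoring 7459 peaks, under 64.95, the kept share went from 2.07% with no nucleosome to 14.6% with 8 or more. In the highest-scoring 7458, above 114.5, it went from 37.0% to 75%. Weighted as the lost peaks, kept peaks had 3.93 nucleosomes and lost peaks 2.71, a difference of 1.22 (1.12 to 1.33), and kept peaks had more in 10 of 10 score deciles. Among peaks with no CDX2 peak within 10 kb the difference was 1.46. With both lists cut to scores of 100 or more it was 0.634, and wild-type peaks whose knockout peak scored under 100 then counted as lost.

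**Figure D2:**
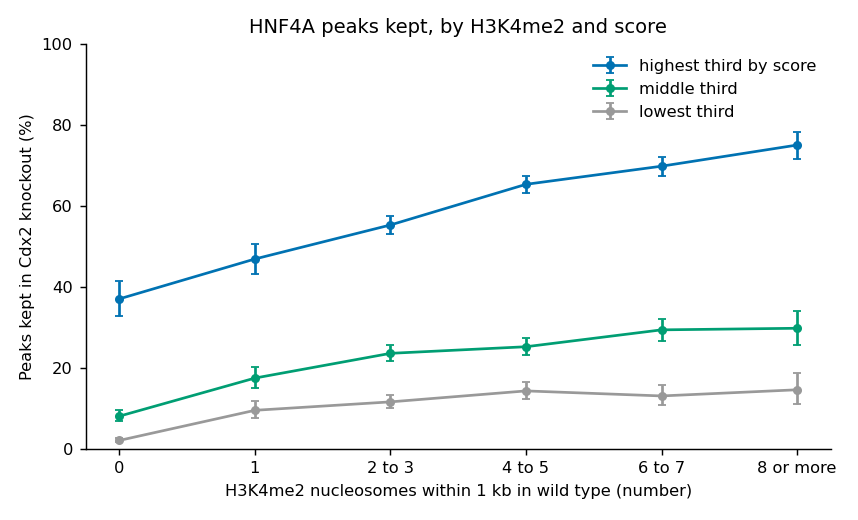
Percentage of wild-type HNF4A peaks kept in Cdx2 knockout against the number of wild-type H3K4me2 nucleosomes within 1 kb, in 3 equal groups of wild-type score, with exact 95% intervals. In every group the share is lowest with no nucleosome, at 2.07%, 8.06% and 37.0%.

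H3K4me2 itself changed less at kept than at lost peaks. Windows of close peaks can share nucleosomes, and the intervals of the nucleosome ratios do not allow for this. Knockout counts were divided by 1.07, the ratio of the total lengths of the H3K4me2 lists (26.7 Mb against 25.1 Mb). The numbers of nucleosomes, 262148 and 250986, have a smaller ratio, and scaling by number was not tried. The distance of a scaled ratio from 1 therefore depends on this choice, while comparisons between classes do not. The scaled ratio of knockout to wild type was 0.901 at kept peaks (0.886 to 0.916) and 0.820 at lost peaks (0.808 to 0.831). Of the 10936 lost peaks that were marked in wild type, 1471 had no nucleosome left in the knockout (13.5%, 12.8 to 14.1). Of the 6370 marked kept peaks, 189 had none left (2.97%, 2.56 to 3.41). These 2 shares were not matched for the number of nucleosomes in wild type, which averaged 4.32 over all kept and 2.71 over all lost peaks. The ratio was lower at lost than at kept peaks in 10 of 10 score deciles, and the gap was widest at the top: in the highest decile it was 0.642 at 348 lost peaks (0.587 to 0.702) and 0.867 at 1889 kept peaks (0.841 to 0.894).

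The change also differed by position within the window. At kept peaks the wild-type profile had flanking maxima and a low centre, with 20.7 and 22.1 nucleosomes per 100 peaks in the 50 bp bins 175 bp to either side of the centre and 8.52 and 8.20 in the 2 central bins. In the knockout the flanking bins held 17.6 and 18.4 and the central bins 9.29 and 9.68. Summed over all kept peaks, the scaled ratio was 1.12 within 100 bp of the centre (1.06 to 1.18) and 0.869 from 100 to 400 bp (0.848 to 0.891). The density in the flank relative to the centre was 1.66 in wild type and 1.29 in knockout. Kept peaks thus had fewer marked nucleosomes beside the binding site and slightly more over it.

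Lost peaks had a shallower profile to begin with, with a flank to centre density of 1.14, and it was 0.922 in the knockout. Their flank ratio was 0.767 (0.750 to 0.784) and their centre ratio 0.946 (0.910 to 0.983). At knockout-only peaks the flank ratio was 1.01 (0.963 to 1.06) and the centre ratio 1.09 (1.00 to 1.19).

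**Figure D3:**
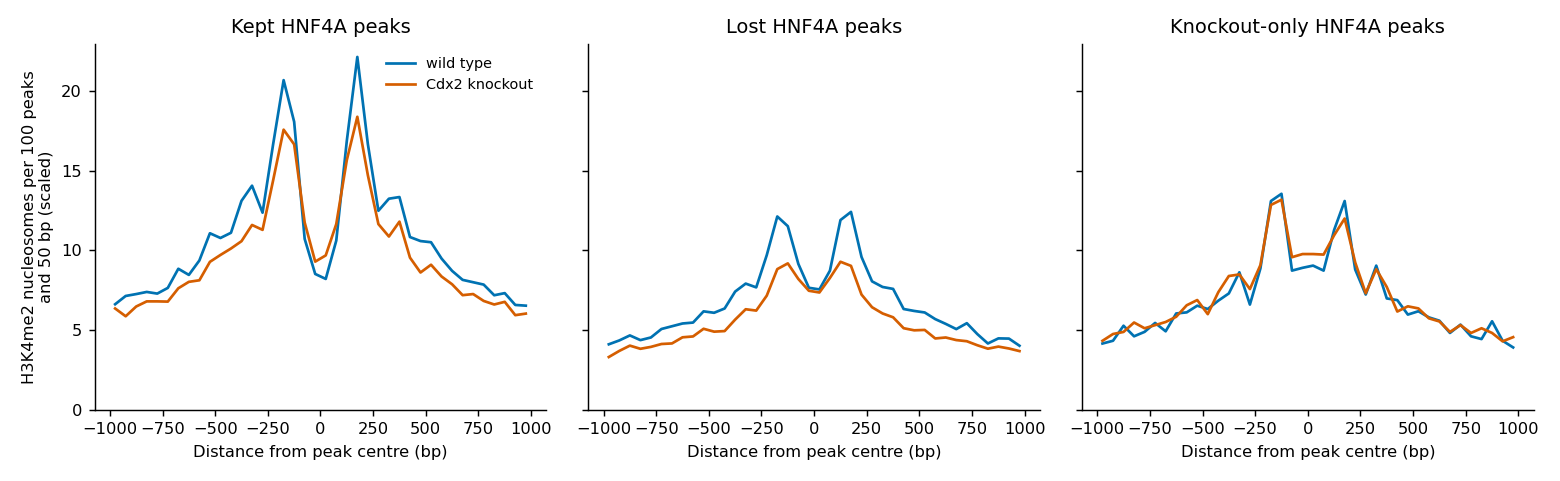
Called H3K4me2 nucleosomes per 100 peaks in 50 bp bins by distance from the HNF4A peak centre, for kept, lost and knockout-only peaks, in wild type and, scaled for list length, in Cdx2 knockout. The flanking maxima of kept and lost peaks are lower in the knockout, and those of knockout-only peaks lie close together.

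The kept share could be read directly against the change of the mark. Among peaks with 4 or more wild-type nucleosomes, 8.59% of the 128 that lost all of them were kept (4.37 to 14.9). With 3 or more fewer but some left, 31% of 820 were kept, and with 1 to 2 fewer 41.8% of 3588. An equal number went with 45.2% of 2934, and 1 to 2 more with 47.7% of 2036. At equal score the 3 groups with fewer nucleosomes differed from the group with an equal number by -31.9, -18.7 and -5.84 points, and their intervals did not reach 0. The groups with more nucleosomes differed from it by 1.84 (-0.52 to 4.19) and -2.41 points (-9.69 to 4.87), within counting error.

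At the 49 lost peaks with a score of 500 or more, the mean number of nucleosomes was 3.59 in wild type and 2.04 in knockout, a scaled ratio of 0.533 (0.413 to 0.686). They had fewer nucleosomes in the knockout at 35, an equal number at 11 and more at 3. The 741 kept peaks above that score had 4.79 and 4.47, a ratio of 0.875 (0.835 to 0.918), with fewer at 297 (40.1%). CDX2 overlapped 18 of the 49 lost peaks (36.7%, 23.4 to 51.7) and 243 of the 741 kept peaks (32.8%, 29.4 to 36.3), and these intervals overlap.

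Distance to CDX2 gave opposite answers with and without allowance for score. Peaks overlapping a wild-type CDX2 peak of either library were kept in 35.5% of 3700 cases (33.9 to 37.0). The share was 30.6% of 1362 with the nearest CDX2 peak within 1 kb but not overlapping, 30.6% of 5145 at 1 to 10 kb, 29.1% of 10141 at 10 to 100 kb and 23.8% of 2028 beyond 100 kb. The median HNF4A score was lower in the same order, from 121 at overlapping peaks to 68.4 beyond 100 kb. Counted plainly, peaks with CDX2 within 1 kb were kept more often than those beyond 10 kb, by 5.93 points (4.40 to 7.47).

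At equal score they were kept less often. Peaks within 1 kb of CDX2 were kept in 34.2% of 5062 cases, against 41.1% of the far peaks weighted to the same score deciles, a difference of -6.97 points (-8.35 to -5.59). With the number of wild-type nucleosomes matched as well, it was -10.2 points (-11.6 to -8.75), and with lists of equal length -10.95 points. The difference was widest in the eighth decile, where 34.5% of near and 50.3% of far peaks were kept. In the sixth the shares were 17.4% and 26.2%, in the ninth 55% and 67.9%, and in the highest 81.0% and 86.6%. The near share was the lower one in 7 of 10 deciles, the 3 exceptions being the lowest, where few peaks of either kind were kept. By mark, the difference at equal score was -3.69 points with no nucleosome (-6.95 to -0.43), -13.2 with 1 to 3 (-15.5 to -10.9) and -9.13 with 4 or more (-11.1 to -7.21).

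**Figure D4:**
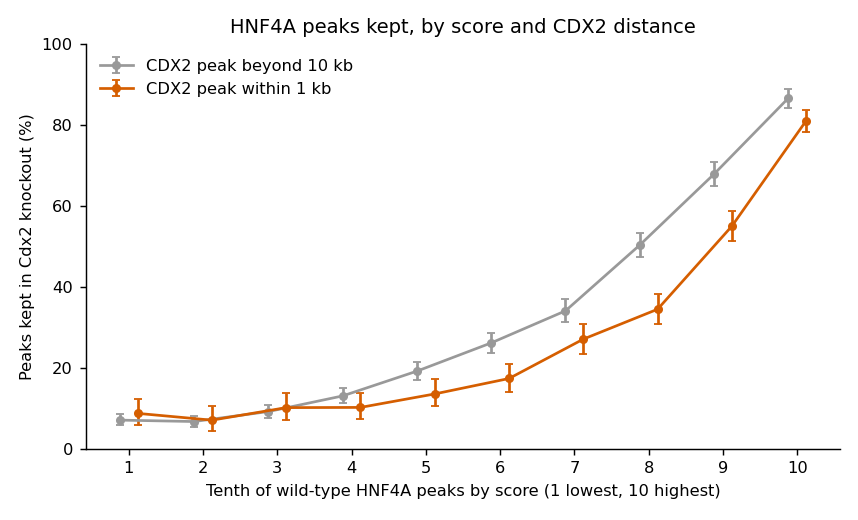
Percentage of wild-type HNF4A peaks kept, by decile of wild-type score, for peaks with a CDX2 peak within 1 kb and for peaks with none within 10 kb, with exact 95% intervals. From the fourth decile upward the near peaks lie lower, as in the eighth with 34.5% against 50.3%.

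The difference was larger where CDX2 itself was strong. At equal HNF4A score, peaks overlapping CDX2 in both libraries differed from far peaks by -15.2 points (656 peaks, -18.3 to -12.1). Those overlapping only library 1 differed by -7.13 points (2809 peaks, -8.87 to -5.38) and those overlapping only library 2 by -8.73 (235 peaks, -13.7 to -3.78). By quartile of the CDX2 score in library 1, the differences were -5.19, -6.80, -8.76 and -13.9 points, and in library 2 they were -7.03, -12.7, -15.7 and -18.5. Each library gave the same order, although neighbouring quartiles had overlapping intervals. By distance, all peaks overlapping CDX2 differed from far peaks by -8.66 points (-10.2 to -7.09). Those within 1 kb without overlap differed by -2.37 (-4.51 to -0.23) and those at 1 to 10 kb by -1.44 (-2.70 to -0.17), so most of the difference lay at overlapping peaks.

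Named peaks show both outcomes at HNF4A peaks that overlapped CDX2 in both libraries. Of these 656 peaks, 437 were lost and 219 kept (33.4%, 29.8 to 37.1), against 30.1% kept of all wild-type peaks. Coordinates are of mouse build mm9. The highest-scoring lost ones were at chr12:70612784-70613537 (score 613.9) and at chr14:51768856-51769176 (613.8). The peak at chr17:3251864-3252454 scored 606.6, and the one at chr4:139184322-139185443 scored 603.7. The fifth, at chr8:118591371-118591972, scored 491.8 and had by far the strongest CDX2 peaks of the 5, with 521.8 and 431.3. Its nucleosome count was 4 in wild type and 1 in knockout. The counts of the other 4, in the order given, were 3 and 0, 3 and 3, 3 and 1, and 2 and 3, so 3 of these 5 had fewer in the knockout. Of all lost peaks, 34.5% had fewer, but 30.1% of them had none in wild type and could not have fewer. Of the 49 lost peaks with a score of 500 or more, 71.4% had fewer.

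The highest-scoring kept peaks with CDX2 in both libraries started from higher scores. At chr4:148211651-148213123 the score was 1732 in wild type and 1126 in knockout, with 3 nucleosomes in wild type and 6 in knockout. At chr16:58519768-58520385 it was 1684 and 701, with 3 and 7 nucleosomes. At chr3:157656292-157656821 it was 1358 and 731, with 4 and 3, and at chr14:73774030-73774675 it was 1203 and 341, with 6 and 6. The first in rank, on chromosome 18, went from 2233 to 1269, with 7 and 8 nucleosomes. All 5 had a lower score in the knockout. Of the 680 one-to-one shared peaks with a wild-type score of 500 or more, only 17 had a higher one. Among the 5, 1 had fewer nucleosomes, against 35.7% of all kept peaks and 40.1% of the 741 scoring 500 or more.

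A different kind of lost peak had no marked nucleosome within 1 kb and no CDX2 within 10 kb. Of the 3723 wild-type peaks of that kind, 3460 were lost and 263 kept (7.06%, 6.26 to 7.93). The highest-scoring was at chr5:135411395-135411909 (score 522), followed by those at chr8:84779765-84780016 (449) and at chr19:23112870-23113275 (416). The next were at chr11:49008678-49008912 (377) and at chr10:93615920-93616271 (360). None of the 5 had a nucleosome within 1 kb in the knockout either. Of all 4700 lost peaks without one in wild type, 9.06% had one in the knockout.

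The kept share differed little with spacing between HNF4A peaks once score was matched. Peaks with another wild-type HNF4A peak within 5 kb were kept in 33.7% of 10041 cases, and those with none within 50 kb in 20.4% of 3301. That difference of 13.4 points (11.7 to 15.0) became 0.36 points (-1.54 to 2.25) at equal score. When the nucleosome count was matched too it was -4.81 (-6.98 to -2.64), and with lists of equal length it was -2.52 (-4.96 to -0.09). Peaks chained less than 10 kb apart were kept in 31.4% of cases in pairs, 33.1% in groups of 3 to 4, 35.8% in groups of 5 to 9 and 37.3% in the 27 groups of 10 or more, against 25.8% of single peaks. None of these 4 group sizes differed from single peaks beyond counting error at equal score.

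The kept share differed with the fate of the nearest neighbour at short range. Peaks nearest to each other were counted in both roles, and the intervals do not allow for this, so they are too narrow. Where the nearest other peak lay within 1 kb and was kept, 41.7% of 1581 peaks were kept. Where it was lost, 29.9% of 3177 were. At equal score the difference was 12.7 points (10.2 to 15.1). Some wild-type neighbours were covered by 1 knockout peak, and without these it was 7.18 points (4.79 to 9.57). It was 7.49 at 1 to 2 kb, 7.44 at 2 to 5 kb (4.50 to 10.4), 2.49 at 5 to 10 kb (-0.61 to 5.58) and 2.89 at 10 to 50 kb (0.74 to 5.04). Beyond 50 kb it was -0.02 (-2.84 to 2.79).

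**Figure D5:**
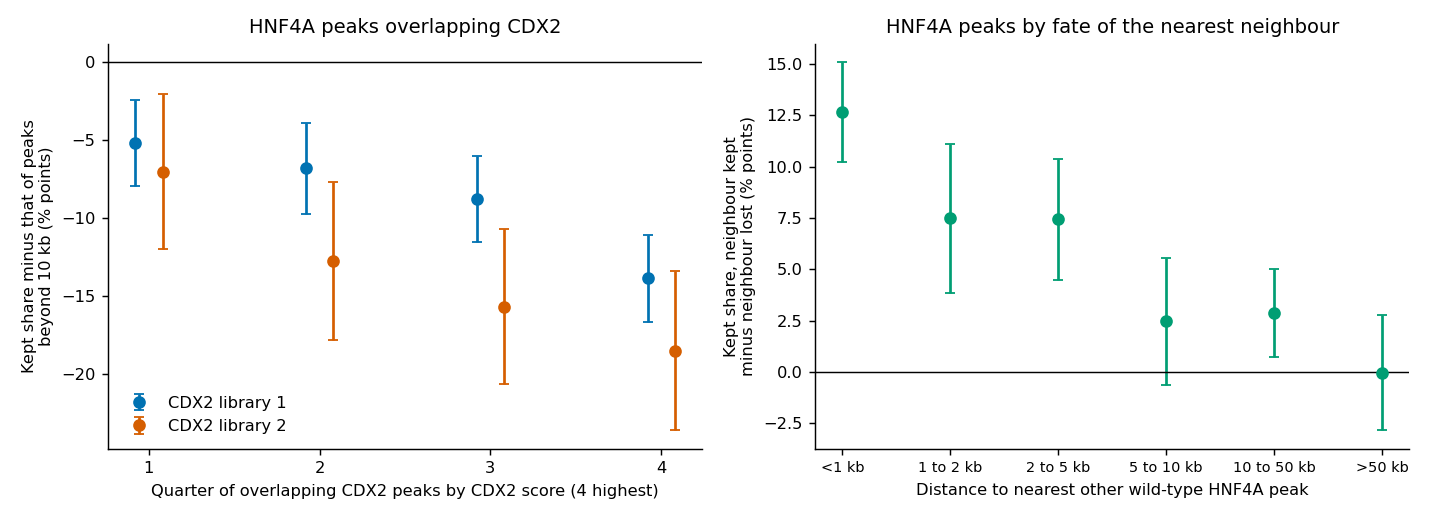
Differences in kept share at equal wild-type HNF4A score, in percentage points with 95% intervals. The left panel gives HNF4A peaks overlapping CDX2 minus peaks beyond 10 kb, by quartile of CDX2 score in each CDX2 library, and reaches -13.9 and -18.5. The right panel gives peaks whose nearest HNF4A neighbour was kept minus those whose neighbour was lost, by distance, and falls from 12.7 within 1 kb to about 0 beyond 50 kb.

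The 3 largest groups illustrate how kept and lost peaks were interleaved. At chr3:129250831-129299027, 15 peaks spanned 48.2 kb, and 5 were kept. The strongest went from a score of 1483 to 569, while 2 lost peaks that overlapped CDX2, with scores of 154 and 195, lay within 10 kb of it, each with 5 nucleosomes in wild type and 4 in knockout. A second group, at chr3:122563897-122601428, had 14 peaks, of which 7 were kept, with a top score of 1482 in wild type and 639 in knockout. At chr5:143656822-143686801, 9 of 13 peaks were kept and the strongest went from 2421 to 1058. The 4 lost peaks of that group had 9, 0, 6 and 5 wild-type nucleosomes and the 9 kept peaks 2 to 7, so the mark did not separate them. The 3 spans held 5, 7 and 9 knockout peaks, and none was knockout-only, against 29.6% of all knockout peaks. The groups were chosen for their many wild-type peaks, which favours overlap.

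At shared peaks the scores were mostly lower in the knockout. The lists had 6881 overlaps, of which 6475 joined exactly 1 peak of each list. Across these the median log2 ratio of knockout to wild-type score was -0.63 (quartiles -1.28 and -0.03), a ratio of 0.645. A score 2-fold or more lower in the knockout was found at 2265 pairs (35.0%), one 2-fold or more higher at 208 (3.21%), and any higher score at 1544 (23.8%). Knockout peaks were narrower in 81.9% of pairs, with medians of 288 bp and 396 bp. Their centres lay within 100 bp of each other in 85.7% of pairs, with a median shift of 39 bp. Divided by the width of the peak, the median log2 ratio of the scores was -0.16.

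The ranks of the peaks were kept in part, with a Spearman correlation of 0.506 and a Pearson correlation of log2 scores of 0.587 across the 6475 pairs, which share their 2 libraries. The median ratio ran from 1.26 in the lowest decile of wild-type score to 0.384 in the highest. The floor of 50 in the knockout list sets part of that slope, because a pair at the median of the lowest decile could not have a ratio under 0.865. At the median of the highest decile the limit was 0.0726, and the quartiles of the observed ratios there were 0.249 and 0.566. Of the 680 pairs with a wild-type score of 500 or more, the median ratio was 0.382 (quartiles 0.248 and 0.564), and 17 had a higher score in the knockout.

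The ratio was lower at shared peaks with CDX2. The median went from 239 to 106 at the 1233 pairs that overlapped CDX2 and from 149 to 97.2 at the 2853 pairs 10 to 100 kb from it, log2 ratios of -1.0 and -0.52. At equal wild-type score, pairs within 1 kb of CDX2 had a log2 ratio lower than pairs beyond 10 kb, the difference being -0.16 (-0.22 to -0.09), and they were lower in 8 of 10 deciles. For the 201 pairs overlapping CDX2 in both libraries the difference was -0.27, with medians of 303 and 109. The ratio was also lower where nucleosomes were fewer in the knockout. Pairs with 3 or more fewer nucleosomes in the knockout had a log2 ratio of -1.13, a difference of -0.32 from pairs with an equal number at equal score. For pairs with 1 to 2 fewer the difference was -0.11 for those with 1 to 2 more 0.03, and for the 121 with 3 or more more -0.0033.

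Among the 3240 pairs at or above the median wild-type score of 169, 517 (16.0%) had a score 4-fold or more lower. The lowest ratio was at chr17:73903900-73904369, where the score went from 1150 to 64.2 (17.9-fold lower) and the nucleosome count from 3 to 0. Next were 4 peaks on chromosome 9. At chr9:102685440-102685902, 1042 became 59.2 (nucleosomes 3 and 1), and at chr9:66001375-66002273, 730 became 54.0 (5 and 5). At chr9:51069512-51070081, 857 became 70.7 (3 and 1), and at chr9:85014673-85015092, 705 became 59.3 (0 and 0). On chromosome 9 as a whole, 30 of 157 pairs were 4-fold lower (19.1%, 13.3 to 26.1), an interval that holds the share of all chromosomes. Of these 5 peaks, the one at chr9:51069512-51070081 overlapped a CDX2 peak, in library 2, and the others lay 28.9 kb or more from one. Of all 6475 one-to-one pairs, 1233 overlapped a CDX2 peak of either library. The knockout scores of all 5, 54.0 to 70.7, lay close to the floor of 50.

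The largest gains among the same pairs were smaller, but choosing pairs by a high wild-type score favours falls over gains. At chr7:107306376-107306694 the score went from 283 to 720, a ratio of 2.54, at a site overlapping a CDX2 peak of library 2. At chr14:100858204-100858449 it went from 215 to 504, and at chr14:115404349-115404593 from 204 to 451. At chr1:93379855-93380278 it went from 192 to 425, and at chr15:78363759-78364108 from 326 to 707. Nucleosome counts were higher by 1 or 2 at 3 of these 5 and were equal at the other 2. Of all kept peaks, 26.6% had a higher count. Pairs below the median wild-type score were left out of this list, and some of them gained by a larger ratio. In the lowest decile of wild-type score the upper quartile of the ratio was 1.67, against 0.566 in the highest. The sizes of the largest falls and gains listed here therefore do not compare falls with gains across all shared peaks.

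Of the knockout peaks, 2865 (29.6%) were knockout-only. They were low and narrow, with a median score of 61.8 (quartiles 56.0 and 75.8) and a median width of 212 bp, against 98.9 and 288 bp at shared knockout peaks. Their share was 56.2% in the lowest decile of knockout score and 0.207% in the highest. At a score of 200 or more, 5 of 1188 knockout peaks were knockout-only, and at 300 or more 0 of 550, which allows a share of up to 0.545% (3 counts of the total). Of the 3609 knockout peaks scoring 100 or more, 255 had no wild-type peak of any score, and with the wild-type list limited to 100 or more as well the knockout-only share was 19.7%.

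Knockout-only peaks lay away from CDX2. Of the 2865, 147 overlapped a wild-type CDX2 peak (5.13%, 4.35 to 6.0), against 19.0% of shared knockout peaks (18.0 to 19.9), and their median distance to CDX2 was 24.0 kb against 10.5 kb. Within 1 kb of CDX2, 14.0% of 2007 knockout peaks were knockout-only (12.5 to 15.6), and beyond 10 kb 36.6% of 5462 were (35.4 to 37.9). At equal knockout score the shared share was higher near CDX2 by 16.2 points (14.5 to 17.9).

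In wild type their chromatin was marked about as often as that of lost peaks. No wild-type nucleosome was called around 30.1% (28.4 to 31.8). The scaled ratio of knockout to wild-type nucleosomes at knockout-only peaks was 1.03 (0.997 to 1.06), against 0.901 at kept and 0.820 at lost peaks. Whether its interval holds 1 depends on the scale, and the ratio without scaling was 1.09. Of the 863 with no nucleosome in wild type, 201 had one in the knockout (23.3%, 20.5 to 26.3), against 426 of the 4700 unmarked lost peaks (9.06%, 8.26 to 9.92) and 110 of the 370 unmarked kept peaks (29.7%, 25.1 to 34.7). Of the 2002 that were marked in wild type, 54 had none left (2.70%, 2.03 to 3.50), close to the 2.97% of kept peaks.

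By position, 254 knockout-only peaks (8.87%) lay within 500 bp of a wild-type HNF4A peak, 985 (34.4%) at 10 to 50 kb and 304 (10.6%) beyond 100 kb. The scaled ratio of H3K4me2 was 0.924 in the first of these groups (0.854 to 1.00), 1.07 in the second (1.01 to 1.13) and 1.06 in the last (0.936 to 1.20). Those beyond 100 kb had 1.56 wild-type and 1.77 knockout nucleosomes on average, the lowest of the 6 distance groups. The highest-scoring of them was at chr4:19852873-19853125 (score 215.6), 208 kb from the nearest wild-type peak, with 3 nucleosomes in wild type and 4 in knockout. The next, at chr5:87164919-87165122 (192.8), had 0 and 1, and the third, at chr6:94453976-94454258 (163.0), had 4 and 3. At chr5:146388919-146389093 (156.2) the counts were 0 and 2, and at chr8:41889076-41889484 (149.8) they were 1 and 3. The count, not scaled, was higher in the knockout at 4 of these 5, and at 33.4% of all knockout-only peaks.

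The highest-scoring knockout-only peaks that overlapped a wild-type CDX2 peak had nearly equal counts in both genotypes. They were at chr16:11340647-11340859 (score 168.0, nucleosomes 0 and 0), at chr11:88968488-88968872 (157.2, 2 and 1) and at chr17:5572198-5572357 (140.4, 2 and 2). The last were at chr8:64403297-64403581 (138.0, 4 and 5) and at chr1:136453371-136453643 (126.1, 6 and 7). No count moved by more than 1.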

How the data were processed

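The authors deposited, for each factor library, a list of peaks with a position and a score, and what the score stands for is not stated; no score was under 50. For H3K4me2 they deposited called nucleosomes with 10 times the −log10 of a p-value per the file headers. Coordinates are of mm9, per the submitters' processing notes. Aligner, caller version, control and read numbers: not given in the sources used here. Groups came from the sample titles.

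From these lists, overlaps, edge-to-edge distances and nucleosomes within 1 kb of peak centres were computed with Python 3.11.15, numpy 2.4.6, pandas 2.3.3 and scipy 1.17.1. CDX2 distances were to the nearest peak of either wild-type library. Shares have exact Clopper-Pearson intervals and plain differences Newcombe intervals. Comparisons at equal score were standardised over deciles of HNF4A score, and where stated over 3 bins of nucleosome count too. The procedures were tested on simulated data. Alternatives changed the overlap rule, score minimum, list length, window, nucleosome minimum, CDX2 library, binning and scaling by width.

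The members, measures and lists were chosen with earlier results of these data known. Named peaks are the 5 highest-scoring per class of CDX2, mark or distance, the 5 highest and 5 lowest score ratios among pairs at or above the median wild-type score, and the 3 largest groups. No gene or sequence is given, because an mm9 genome and annotation were not used here.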

Additional observations from a re-analysis of the deposited data

How the results depend on the processing

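Direction and size held for 18 of the 43 values recomputed, 21 moved and 4 reversed. The kept share (30.1%) was 33.4% when a knockout peak within 500 bp counted, 33.0% with both lists cut to scores of 100 or more (56.5% with the wild-type list alone cut) and 53.7% with lists of equal length. The knockout-only share (29.6%) was 30.5% at 50% overlap, 27.0% within 500 bp and 19.7% with both lists cut to 100 or more. At that minimum the ratio of median scores (2.48) was 1.93, the width difference (22.6 bp) reversed to -9.69 bp and the nucleosome difference (1.22) was 0.634. The nucleosome difference was 0.796 in a 500 bp window, 1.68 in a 2 kb window and 1.09 for nucleosomes scoring 100 or more. The CDX2 difference (-6.97 points) was -8.69 with sites of both libraries, -10.95 with lists of equal length and -10.2 with nucleosomes matched. Leaving out 1 CDX2 library gave -7.76 to -7.22 points, and for the score ratio (-0.16, log2) -0.17 to -0.15. The spacing difference (0.36 points) reversed to -2.52 with lists of equal length and -4.81 with nucleosomes matched. Dividing scores by width gave a Spearman correlation of 0.461 (against 0.506) and a median log2 ratio of -0.16 (against -0.63). The following were added after seeing the data. Without standardising, the CDX2 difference reversed to 5.93 points and the spacing difference was 13.4. Far from CDX2 the nucleosome difference was 1.46. The H3K4me2 ratio of lost over kept peaks (0.910) was 0.890 in a 500 bp window and 0.931 far from CDX2. Without peaks sharing a knockout peak the neighbour difference (12.7) was 7.18. Except where the alternative itself changes the peaks counted, the cause was not tested. No paired analysis was possible because each HNF4A group has 1 library. Depth is unknown, and a difference in depth between the HNF4A libraries cannot be told apart from one in binding.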

Other observations

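Kept shares varied among chromosomes, from 23.9% of 999 peaks on chromosome 13 (95% interval 21.3 to 26.7) to 34.7% of 1746 on chromosome 11 (32.5 to 37.0). At equal score these differed from all other chromosomes by -4.02 points (-6.27 to -1.78) and 3.38 points (1.46 to 5.31). On the X chromosome, 35 of 83 knockout peaks were knockout-only (42.2%, 31.4 to 53.5). The mitochondrial genome held 1 wild-type HNF4A peak, at 10968 to 15729 with a width of 4762 bp and a score of 52.9, and it was not called in the knockout. These chromosomes were singled out after their values were seen.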
